A study of Homo sapiens with 21 samples.

Results

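The SNAIL, ZEB and TWIST transcription factors were examined by chromatin accessibility in SK-N-BE(2) cells, an established human neuroblastoma line, after silencing of ARID1A, ARID1B or both. The members were SNAI1, SNAI2, ZEB1, ZEB2, TWIST1 and TWIST2, and every accessible site that the deposited peak annotation names for 1 of these genes was taken. A site is named for the gene with the nearest transcription start, and whether it acts on that gene was not measured. This gave 81 of 367900 sites, and all 81 passed the filter on low counts, as did 357029 of all sites. SNAI2 had 40 sites, TWIST1 29, SNAI1 6, TWIST2 4, and ZEB1 and ZEB2 had 1 each. By annotation class, 44 were intergenic, 31 intronic, 3 at promoters, 2 exonic and 1 at a transcript end.

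All libraries came from the same line, cultured with 20% foetal bovine serum, transduced with lentivirus and collected 72 h later. The 21 libraries formed 7 groups of 3, described by the series as biological triplicates. The groups were Control (headed NSC in the deposited tables; its labels name no target), shARID1A.2 and shARID1A.4 against ARID1A, shARID1B.2 and shARID1B.3 against ARID1B, and the combinations shARID1A/B.2.3 and shARID1A/B.4.2 against both genes. The labels do not spell out which short hairpin RNAs (shRNAs) each combination holds, and how far each shRNA lowered its target was not measured here. The p-values measure the spread between these libraries of a single line.

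The SNAIL and ZEB proteins are zinc-finger repressors that bind E-boxes, and the TWIST proteins are basic helix-loop-helix factors that bind E-boxes as dimers with E proteins such as TCF3. Together they are the best known inducers of epithelial-mesenchymal transition (EMT), in which cells lose cell-cell adhesion and gain motility, and they also act in the neural crest, the embryonic tissue from which neuroblastoma arises. ARID1A and ARID1B are mutually exclusive subunits that hold together BAF, a chromatin remodelling complex that slides and evicts nucleosomes, above all at distal regulatory elements. ATAC-seq counts insertions of the Tn5 transposase, so the reads over a site rise with its accessibility. Accessibility near a gene is not the expression of that gene.

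Libraries held 16140029 to 44472230 reads in sites, and the sites of the 6 genes held 1 to 2053 reads per library, with a median of 34. Levels are given as CPM, the usual scaling of counts to the library total (here after TMM correction), and they averaged 0.292 to 43.6 CPM over the 21 libraries at the 81 sites, with a median of 1.40 against 1.02 over all tested sites. A site was called closed or opened where its false discovery rate (FDR), the Benjamini-Hochberg adjusted p of the edgeR quasi-likelihood test over all 357029 sites, was below 0.01. The share of reads at promoter sites was 20.0% to 20.6% in Control, 20.9% to 24.1% with single shRNAs and 23.4% to 25.1% with the combinations, so it moved with the groups and its part in the results below was not tested. Scaled on promoter sites, the median log2 change of all sites after combined silencing went from 0.03 to -0.20, and every value against Control given here is relative to the scaling used. The line was checked against marker genes, each by the brightest promoter-class site named for it, or else by the site nearest its start. Such a promoter can be annotated to another gene, as for KRT18 (the KRT8 promoter, at -21.4 kb) and HAND2 (HAND2-AS1). The 11 adrenergic neuroblastoma markers (such as HAND2 and PHOX2A) measured 2.43 to 43.9 CPM in Control and the 8 mesenchymal ones 0.369 to 72.1, against 0.178 to 6.62 for 11 markers of epithelial, blood, endothelial and liver cells, of which only 4 had their site within 1000 bases of the start. Summed, the latter 11 measured 20.96 to 27.8 CPM in Control, 25.3 to 39.3 with single shRNAs and 27.3 to 35.4 with the combinations. After combined silencing 3 of them opened (EPCAM, CDH1 and CD3E, log2 change 0.60, 0.57 and 0.45) and none closed, and their part in the results was not tested. Of the adrenergic markers 3 opened and 1 closed, and of the mesenchymal ones 1 opened and 1 closed. Among all sites within 1000 bases of a start 31.8% opened and 3.72% closed, against 3.43% and 10.3% of all tested sites. CD3E rose with shARID1A/B.2.3 (1.03, FDR 2.87e-09) but measured -0.14 with shARID1A/B.4.2, a difference of 1.17 (FDR 5.43e-10). It also rose with shARID1B.3 alone (1.60, FDR 3.73e-17) and was not called with shARID1B.2 (0.34, FDR 0.211).

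Combined silencing, the mean of both combinations against Control, asked what silencing of both subunits did at these genes. Closed sites lay mostly at TWIST1, opened sites at SNAI1, SNAI2 and ZEB1. Of the 81 sites, 18 closed (22.2%), against 10.3% of all tested sites, and 6 opened (7.41%), against 3.43%. The log2 changes ran from -1.42 to 0.93 with a median of -0.09, where the median of all tested sites was 0.03. Since brighter sites are called more easily, the 53 sites of at least 1 CPM were set beside all tested sites of that level, and 13 of them closed (24.5%, against 16.5%) and 6 opened (11.3%, against 6.20%). TWIST1 had 12 closed and no opened sites of 29 (41.4% closed, median log2 change -0.39). SNAI2 had 2 closed and 3 opened of 40 (median 0.11), SNAI1 had 2 closed and 2 opened of 6, ZEB1 had its site opened, ZEB2 had its site closed, and TWIST2 had 1 closed of 4. At 5 of the closed sites accessibility fell to at most 50% of Control, namely SNAI1 11.2 kb, SNAI2 -12.9 and 34.7 kb, and TWIST1 155.3 and 273.2 kb. Of these, SNAI1 11.2 kb, SNAI2 34.7 kb and TWIST1 155.3 kb were dim, with 1 to 21, 9 to 30 and 10 to 43 reads per library. The call at SNAI1 11.2 kb was lost in 5 of 15 alternative fits. Control replicate 2 and shARID1A/B.2.3 replicate 2 stood apart from the other libraries of their groups (chi-square per degree of freedom of the counts 1.75 and 1.95 for the former and 2.47 and 2.19 for the latter, against 1.09 for the remaining pair of each group). Without the former 12 sites closed and 6 opened, and without the latter 15 closed and 6 opened. Under promoter scaling the calls were 25 closed and 1 opened, so that the closed share of called sites went from 75% to 96.2%. The median of all tested sites also fell under that scaling, to -0.20. The shares of all tested sites called closed or opened there were not counted, so this shift is not a result about the members.

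**Figure D1:**
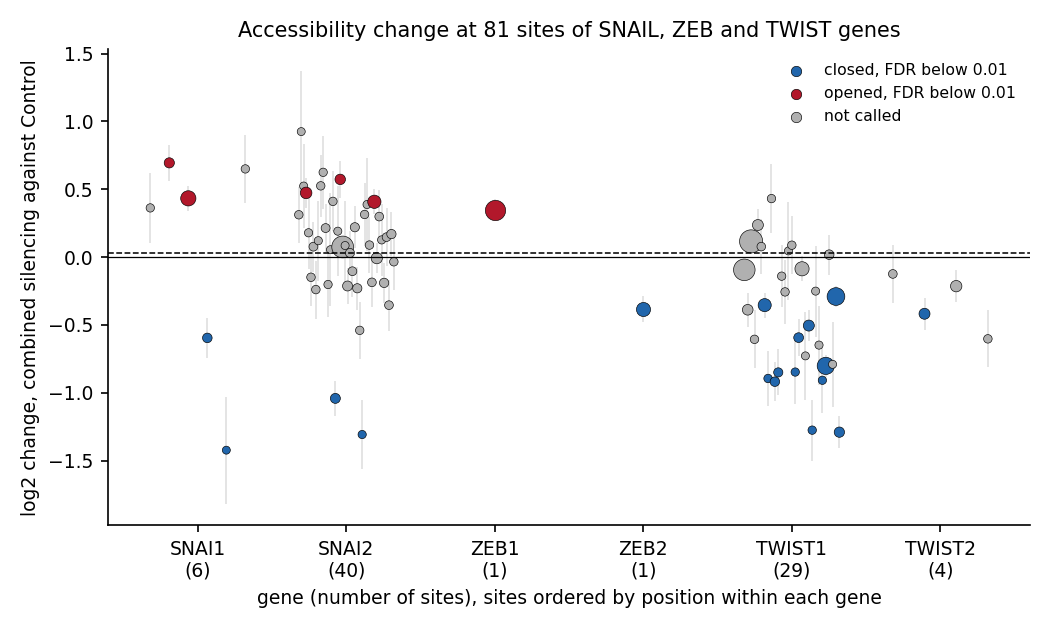
Log2 change after combined silencing against Control at each of the 81 sites, ordered by position within each gene, with bars of 1 standard error, point area rising with the mean CPM and a dashed line at the median of all tested sites (0.03). Closed sites are blue, opened sites red, and the 12 closed TWIST1 sites reach down to -1.29.

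At transcription starts, the level of a member was compared per kb of site width. In Control, the TWIST1 start site measured 18.5 ± 1.0 CPM per kb (SD, n = 3), SNAI2 17.4 ± 0.398, ZEB2 11.3 ± 1.2, ZEB1 9.42 ± 0.435 and SNAI1 7.09 ± 0.700. The Control libraries of TWIST1 and SNAI2 overlapped, and those of the other neighbours in this order did not. TWIST2 had no site within 1000 bases of its start. After combined silencing 2 of these 5 start sites opened, 1 closed and 2 were not called. Among all 9423 start sites of at least 10 CPM, 50.1% opened and 1.40% closed, with a median log2 change of 0.28.

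SNAI1 encodes SNAIL, a repressor of E-cadherin. Its start site (chr20:49982248-49984100, GRCh38, intron 1) measured 14.2, 11.7 and 13.5 CPM in the 3 Control libraries, 18.4, 15.2 and 18.3 with shARID1A/B.2.3 and 17.0, 18.2 and 19.4 with shARID1A/B.4.2. All 6 combination libraries lay above all Control libraries, and the log2 change was 0.43 ± 0.09 (SE; FDR 1.42e-04), or 0.20 (FDR 0.0491) when scaled on promoter sites. ZEB1 encodes a zinc-finger homeodomain repressor, and its site spans the start shared with the divergent ZEB1-AS1 (chr10:31318223-31321117, promoter). It measured 28.3, 25.9 and 27.6 CPM in Control, 30.3, 28.8 and 32.4 with shARID1A/B.2.3, and 38.4, 39.6 and 41.3 with shARID1A/B.4.2. All 6 combination libraries lay above Control, those of shARID1A/B.4.2 the highest, and the change was 0.35 ± 0.07 (FDR 1.23e-04) over both combinations, or 0.12 (FDR 0.176) when scaled on promoter sites. The combinations differed there by -0.39 ± 0.08 (shARID1A/B.2.3 minus shARID1A/B.4.2, FDR 5.27e-04), with 0.16 (FDR 0.194) for shARID1A/B.2.3 and 0.54 (FDR 2.82e-07) for shARID1A/B.4.2.

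ZEB2 encodes the paralogue of ZEB1 and is needed in neural crest development. Its promoter site (chr2:144520003-144521265) measured 15.8, 14.4 and 12.7 CPM in Control, 10.8, 13.3 and 11.1 with shARID1A/B.2.3 and 11.3, 10.5 and 8.58 with shARID1A/B.4.2. The groups overlapped in 1 library, and the site closed, with a log2 change of -0.38 ± 0.09 (FDR 0.00103). The call was lost without Control replicate 1 (-0.31, FDR 0.0350) and without Control replicate 2 (-0.35, FDR 0.010). It was the only member start site called closed, where 1.40% of all start sites of at least 10 CPM were. By combination, this site was called with shARID1A/B.4.2 and not with shARID1A/B.2.3, and the difference between the combinations was not called. Summed per gene, where ZEB2 holds only this site, the changes were -0.62 (FDR 3.85e-04) with shARID1A/B.4.2 and -0.25 (FDR 0.093) with shARID1A/B.2.3.

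SNAI2 encodes SLUG, a neural crest regulator, and TWIST1 a helix-loop-helix factor of cranial mesenchyme and neural crest. The SNAI2 start site (chr8:48920186-48922259, exon) measured 35.4, 36.9 and 35.6 CPM in Control, 37.2, 39.8 and 37.0 with shARID1A/B.2.3 and 37.7, 37.6 and 38.1 with shARID1A/B.4.2. Its log2 change was 0.07 ± 0.07 (FDR 0.532), which became -0.16 (FDR 0.0501) with promoter scaling. The TWIST1 start site (chr7:19116211-19118439, promoter) measured 42.6, 42.4 and 38.6 CPM in Control, 37.6, 39.7 and 33.7 with shARID1A/B.2.3 and 41.4, 40.8 and 38.2 with shARID1A/B.4.2. The groups overlapped, with a change of -0.09 ± 0.07 (FDR 0.440), although with promoter scaling it was called at -0.33 (FDR 1.46e-05). With shARID1A.2 alone the same site measured 35.0, 30.4 and 30.2 CPM, all below Control, and was called at -0.37.

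**Figure D2:**
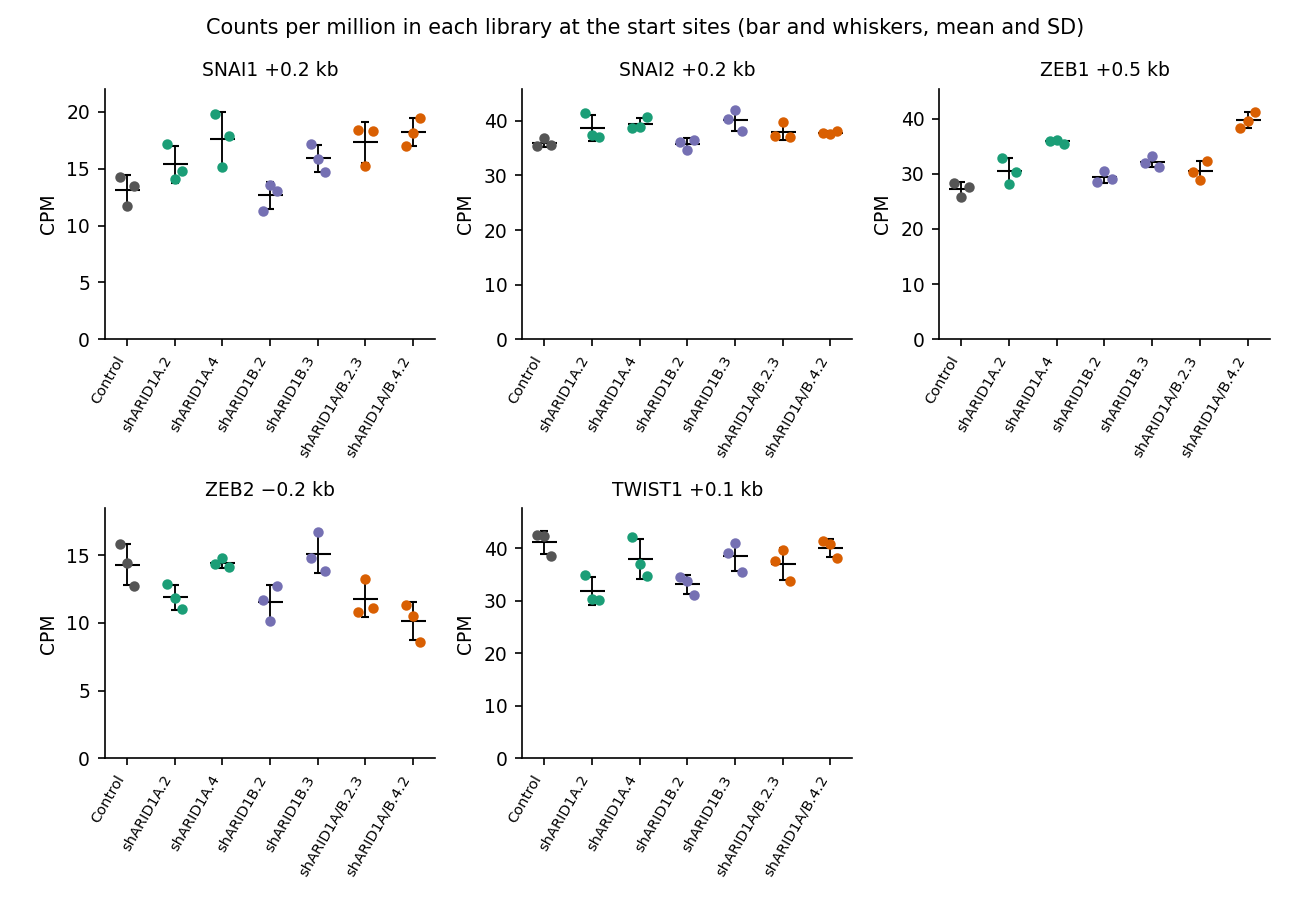
CPM in each library at the start sites of the members with a site within 1000 bases of the start, by group, with the mean and SD of 3 libraries. SNAI1 and ZEB1 rose with the combinations, ZEB2 fell and SNAI2 lay between 34.6 and 41.9 CPM in every library. By combination, ZEB1 and ZEB2 were called with shARID1A/B.4.2 only.

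The TWIST1 sites ran from the start to 273.2 kb downstream, and with TMM scaling most called falls lay away from the start. Within 30 kb of the start 1 of 7 sites closed, from 30 to 100 kb 3 of 8, and beyond 100 kb 8 of 14, where the median log2 change was -0.69. The last 12 sites lie in introns of HDAC9, the neighbouring gene for a class II histone deacetylase, and 6 of these closed. Other sites in the body of HDAC9, named for other genes, closed at 27 of 109 (24.8%, median -0.41), and the neighbours FERD3L and MIR3146 had 4 of 32 and 5 of 39 sites closed. Among all intronic sites 12% closed, and among all intronic and intergenic sites of at least 1 CPM 17.7% did. No TWIST1 site opened, where 1 was higher at an unadjusted p under 0.05, and DESeq2 called 10 closed and none opened. With promoter scaling 16 TWIST1 sites closed, the added ones at 0.1, 4.9, 16.4 and 121.9 kb (FDR 1.46e-05, 2.89e-05, 0.00234 and 0.0032). That scaling lowered near and far values alike, from -0.09 to -0.33 at 0.1 kb and from -1.29 to -1.52 at 273.2 kb. More sites near the start were thus called, while the contrast in log2 change between these sites stayed. How many of all tested sites closed under that scaling was not counted. Without Control replicate 1 or 2 the closed TWIST1 sites numbered 8, and without the latter the calls at 26.4, 116.8, 140.8 and 270.9 kb were lost (FDR 0.0238, 0.0109, 0.0315 and 0.127), sites chosen after their values were seen.

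The sequences of the central 300 bases of 3 TWIST1 sites are shown (GRCh38, plus strand), since the first fell after combined silencing but rose with 1 shRNA against ARID1B, the second was the brightest that fell by over 0.5, and the last fell most among those of at least 1 CPM. Capitals mark E-boxes of the letters CAGGTG or CACCTG (the core preferred by SNAIL and ZEB), CATATG, and CATCTG or CAGATG (both described for TWIST dimers). They lie at chr7:19062394-19062693, chr7:18890348-18890647 and chr7:18844035-18844334.
TWIST1 54.9 kb: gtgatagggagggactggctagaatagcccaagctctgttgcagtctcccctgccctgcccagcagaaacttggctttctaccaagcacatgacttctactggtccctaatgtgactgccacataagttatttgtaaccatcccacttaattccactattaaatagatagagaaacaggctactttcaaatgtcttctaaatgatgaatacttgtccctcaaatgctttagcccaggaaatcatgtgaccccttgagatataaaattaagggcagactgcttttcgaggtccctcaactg
TWIST1 226.9 kb: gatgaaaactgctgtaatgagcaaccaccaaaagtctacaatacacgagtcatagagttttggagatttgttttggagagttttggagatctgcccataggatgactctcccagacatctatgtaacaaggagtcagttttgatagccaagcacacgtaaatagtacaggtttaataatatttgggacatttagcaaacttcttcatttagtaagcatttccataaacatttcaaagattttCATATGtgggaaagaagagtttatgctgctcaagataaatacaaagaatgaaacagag
TWIST1 273.2 kb: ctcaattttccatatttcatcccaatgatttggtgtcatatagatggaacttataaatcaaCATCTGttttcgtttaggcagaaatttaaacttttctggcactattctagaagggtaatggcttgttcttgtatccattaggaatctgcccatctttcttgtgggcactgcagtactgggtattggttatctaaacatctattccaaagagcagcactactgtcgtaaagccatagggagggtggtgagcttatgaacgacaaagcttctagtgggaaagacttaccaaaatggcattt
The window at 226.9 kb holds 1 CATATG, that at 273.2 kb 1 CATCTG, and that at 54.9 kb none of these. Their GC contents were 35.7%, 39.0% and 44% in the same order, against a median of 46.7% over all tested sites.

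The site at 9.9 kb was the brightest of all members at 43.6 CPM. It measured 41.3, 42 and 43.4 CPM in Control, 45.7, 47.7 and 45.9 with shARID1A/B.2.3 and 44.9, 43.8 and 46.7 with shARID1A/B.4.2. The combination libraries lay above Control by a small margin, and the change of 0.12 ± 0.07 was not called (FDR 0.269) and was -0.12 with promoter scaling.

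At 273.2 kb (chr7:18843947-18844422, HDAC9 intron 22) the site measured 7.51, 6.94 and 6.41 CPM in Control, 2.13, 2.32 and 2.33 with shARID1A/B.2.3 and 3.32, 3.96 and 3.39 with shARID1A/B.4.2. No combination library reached a Control library, but the naming rule required this of the largest falls and rises, so it adds nothing to the call. The log2 change was -1.29 ± 0.12 (FDR 8.82e-16). It measured 3.84, 2.77 and 4.65 CPM with shARID1B.2 and 2.07, 1.82 and 1.47 with shARID1B.3, against 5.16, 4.87 and 5.12 with shARID1A.2 and 6.68, 5.59 and 5.57 with shARID1A.4. ARID1B silencing gave -1.40 ± 0.12 (FDR 2.54e-16) and ARID1A silencing gave -0.34 (FDR 0.0380), and the difference between the genes was 1.06 ± 0.11 (FDR 2.33e-13). Both shRNAs against ARID1B went the same way here, although shARID1B.3 was lower than shARID1B.2 (log2 difference -1.06 ± 0.16, FDR 4.06e-07). The combination with the suffix 2.3 was lower than that with 4.2 (-0.65, FDR 0.00287).

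At 226.9 kb (chr7:18889217-18891777, HDAC9 intron 23), a site chosen after its values were seen, accessibility was 28.6, 28.9 and 26.5 CPM in Control, 17.9, 18.7 and 16.2 with shARID1A/B.2.3 and 14.3, 15 and 14.4 with shARID1A/B.4.2. The groups were well apart, with a change of -0.80 ± 0.08 (FDR 1.13e-14). Single silencing gave -0.26 for ARID1A (FDR 0.0178) and -0.33 for ARID1B (FDR 0.00155, lost without Control replicate 1 at FDR 0.0172 and without Control replicate 2 at FDR 0.0264). Combined silencing was below the mean of the single shRNAs by -0.51 ± 0.06 (FDR 3.80e-11). With shARID1A.2 the site measured 19.1, 19.7 and 21 CPM and with shARID1A.4 27.6, 27.0 and 27.9, so the former fell to -0.49 (FDR 4.15e-05), the latter measured -0.03, and they differed by -0.46 (FDR 2.81e-04).

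At 54.9 kb (chr7:19062049-19063038, TWIST1 intron 2) the Control libraries measured 3.56, 3.45 and 3.53 CPM. The combinations measured 2.27, 1.53 and 1.63 (shARID1A/B.2.3) and 2.15, 1.93 and 1.67 (shARID1A/B.4.2). All were below Control, as the naming rule required, and the site had a log2 change of -0.92 ± 0.15 (FDR 2.63e-07). It fell to 1.45, 1.71 and 1.35 CPM with shARID1A.2 (-1.22, FDR 2.38e-07) and was 2.84, 2.73 and 2.5 with shARID1A.4 (-0.38, not called). With shARID1B.3, however, it rose to 5.41, 5.41 and 5.97 CPM (0.66 ± 0.14, FDR 2.19e-04), whereas shARID1B.2 gave 3.13, 2.82 and 1.93 (-0.43, FDR 0.136). The shRNAs against ARID1B differed from each other by 1.09 ± 0.15 (FDR 2.40e-08). The pooled values of 0.12 for ARID1B (FDR 0.700), -0.80 for ARID1A (FDR 2.60e-05) and -0.92 ± 0.12 for their difference (FDR 1.41e-08) therefore average unlike shRNAs.

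The site at 61.1 kb (chr7:19055735-19056962, the same intron), also chosen after its values were seen, was likewise above Control with shARID1B.3 and below it with both combinations. It measured 2.07, 2.01 and 2.53 CPM in Control, 5.27, 5.59 and 5.76 with shARID1B.3, 1.66, 1.81 and 1.75 with shARID1B.2, and 0.928 to 1.51 with the combinations. The rise with shARID1B.3 was 1.32 ± 0.15 (FDR 2.25e-11), the fall after combined silencing -0.85 ± 0.17 (FDR 4.31e-05), and the shRNAs against ARID1B differed by 1.67 ± 0.16 (FDR 6.12e-14). The 37.6 kb site (chr7:19079136-19080460) measured 1.49, 1.73 and 1.48 CPM in Control and 0.649 to 1.03 with the combinations, a change of -0.89 ± 0.20 (FDR 2.80e-04). ARID1A silencing gave -0.92 there (FDR 6.46e-04, or -0.82 and 0.0167 without Control replicate 2) and ARID1B silencing -0.26. The difference of -0.67 ± 0.18 (FDR 0.00726) had an adjusted p of 0.0315 with DESeq2, and it was lost without any 1 of 9 of the 12 single-shRNA libraries, all but shARID1A.4 replicate 2, shARID1B.2 replicate 2 and shARID1B.3 replicate 3 (values of -0.58 to -0.69, FDR 0.0111 to 0.0388).

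**Figure D3:**
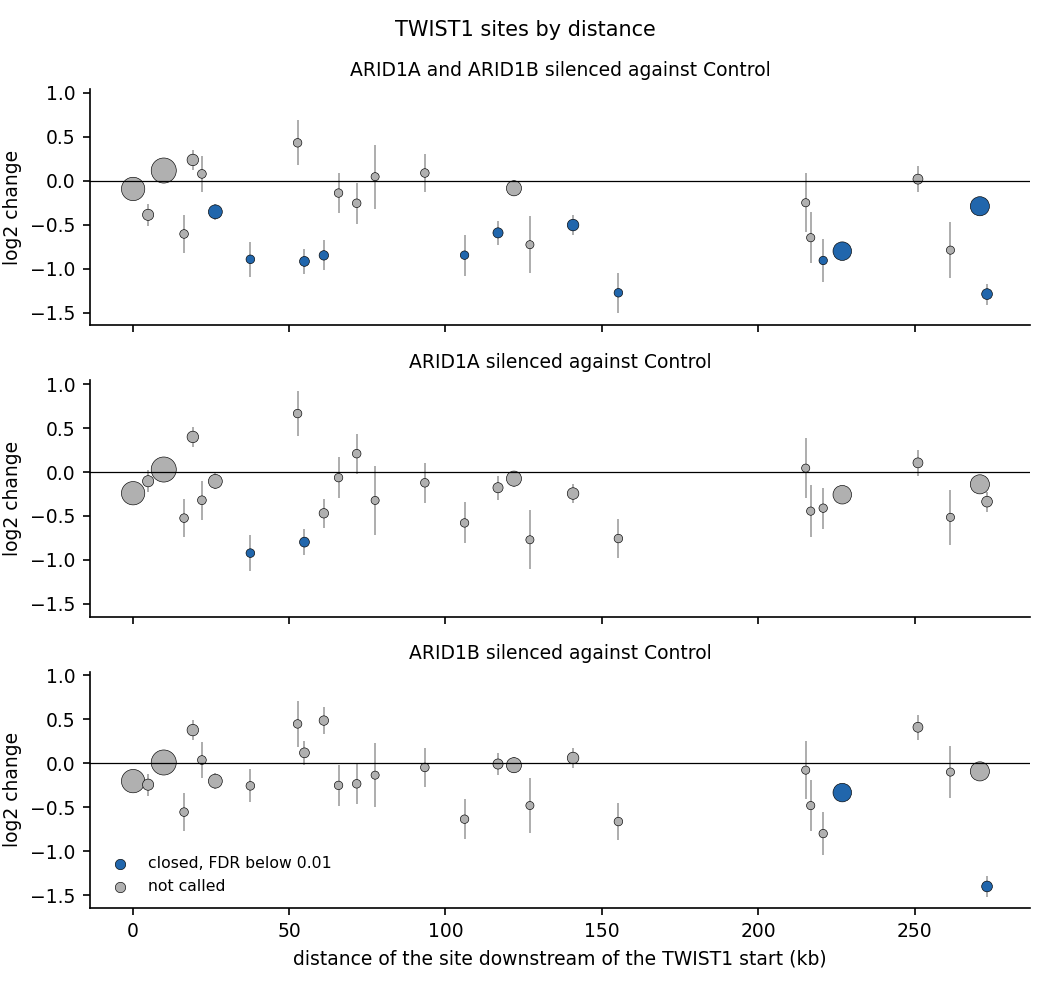
Log2 change against Control at the 29 TWIST1 sites by distance downstream of the start in kb, for combined, ARID1A and ARID1B silencing, with bars of 1 standard error and point area rising with the mean CPM. Closed sites (TMM scaling) are blue, and 8 of 14 sites beyond 100 kb closed after combined silencing.

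SNAI1 had a second opened site at -3.6 kb (negative distances are upstream of the start; chr20:49979080-49979593, intergenic). It measured 3.27, 2.42 and 2.89 CPM in Control, 4.56, 3.81 and 3.78 with shARID1A/B.2.3 and 4.79, 5.34 and 5.61 with shARID1A/B.4.2. All combination libraries were above Control, as the naming rule required, with a change of 0.69 ± 0.13 (FDR 1.75e-05). This was the only member site still called opened with promoter scaling. ARID1A silencing gave 0.57 (FDR 0.00165), which was lost with promoter scaling (0.38, FDR 0.0456), without Control replicate 2 (0.48, FDR 0.0295) and without Control replicate 3 (0.58, FDR 0.0102), and ARID1B silencing 0.33 (FDR 0.141). The central 300 bases (chr20:49979187-49979486, GRCh38, plus strand), with a GC content of 70.3%, hold a CACCTG and a CAGATG, in capitals.
SNAI1 -3.6 kb: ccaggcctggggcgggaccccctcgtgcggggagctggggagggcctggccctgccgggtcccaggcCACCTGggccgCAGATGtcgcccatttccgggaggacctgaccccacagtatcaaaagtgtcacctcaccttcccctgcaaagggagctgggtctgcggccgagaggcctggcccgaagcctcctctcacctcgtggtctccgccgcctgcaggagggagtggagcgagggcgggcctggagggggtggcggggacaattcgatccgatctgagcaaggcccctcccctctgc
Downstream of SNAI1, the site at 7.1 kb measured 4.62, 2.67 and 4.01 CPM in Control and 1.86 to 3.27 with the combinations (log2 change -0.60, FDR 8.93e-04). The groups overlapped, and the call was lost without Control replicate 1 (-0.44, FDR 0.0598) and without Control replicate 3 (-0.54, FDR 0.0162). The other closed site, at 11.2 kb, averaged 0.292 CPM with a change of -1.42 ± 0.39 (FDR 0.00431), a call that DESeq2 did not make (adjusted p 0.0262) and that was lost without Control replicate 2 (FDR 0.0131), Control replicate 3 (-1.10, FDR 0.115), shARID1A/B.2.3 replicate 2 (FDR 0.0149) or shARID1A/B.4.2 replicate 1 (FDR 0.0121). The naming rule did not take these 2 sites, and both were chosen after their values were seen.

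The SNAI2 sites spread over both sides of the start, from -69.2 kb to 89.2 kb, and 35 of 40 were not called. An upstream site at -12.9 kb (chr8:48933544-48935110, intergenic) closed, with 4.43, 5.01 and 4.65 CPM in Control, 1.84, 2.23 and 1.89 with shARID1A/B.2.3 and 2.46, 2.21 and 3.11 with shARID1A/B.4.2. All 6 combination libraries were below Control, as the naming rule required of the largest falls, at -1.04 ± 0.13 (FDR 1.83e-10). The single shRNAs spread widely. shARID1A.2 gave 2.81, 3.98 and 3.46 CPM (-0.46, FDR 0.0336) and shARID1A.4 gave 2.70, 2.40 and 3.19 (-0.78, FDR 1.30e-04). shARID1B.3 lowered the site to 2.29, 2.26 and 2.44 CPM (-1.02 ± 0.15, FDR 4.45e-08), while shARID1B.2 raised it to 7.82, 7.51 and 7.64 (0.70 ± 0.13, FDR 8.91e-05). These shRNAs against the same gene thus differed by -1.72 ± 0.14 (FDR 9.29e-18), with no overlap between them or with Control. The pooled difference of ARID1A from ARID1B silencing, -0.46 (FDR 0.00173), averages over that and was lost without shARID1A.2 replicate 1 (FDR 0.0148) and without shARID1A.4 replicate 2 (FDR 0.0160).

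The 3 opened SNAI2 sites changed less. The site at -4.3 kb measured 2.84, 4.27 and 2.97 CPM in Control, 4.79, 5.02 and 5.50 with shARID1A/B.2.3 and 5.11, 4.69 and 5.10 with shARID1A/B.4.2 (0.57 ± 0.13, FDR 5.25e-04). Control replicate 2 stood near the combinations, and the call was lost without Control replicate 1 (0.47, FDR 0.0191) or Control replicate 3 (0.48, FDR 0.0199). The site at -55.9 kb measured 5.49, 6.16 and 5.45 CPM in Control and 7.26 to 8.75 with the combinations (0.47 ± 0.11, FDR 3.69e-04). The site 51.1 kb downstream measured 8.81, 9.08 and 8.94 CPM in Control, 9.65, 10.4 and 10.1 with shARID1A/B.2.3 and 14, 14.4 and 13.7 with shARID1A/B.4.2. Its change of 0.41 ± 0.09 (FDR 4.10e-04) averaged 0.65 with shARID1A/B.4.2 (FDR 9.21e-07) and 0.17 with shARID1A/B.2.3 (FDR 0.288), and the combinations differed by -0.48 ± 0.10 (FDR 4.05e-04). With promoter scaling the 3 sites were not called, at 0.34, 0.24 and 0.18 in the order given. The second closed SNAI2 site, 34.7 kb downstream and chosen after its values were seen, averaged 0.683 CPM and changed by -1.31 ± 0.26 (FDR 3.24e-05).

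**Figure D4:**
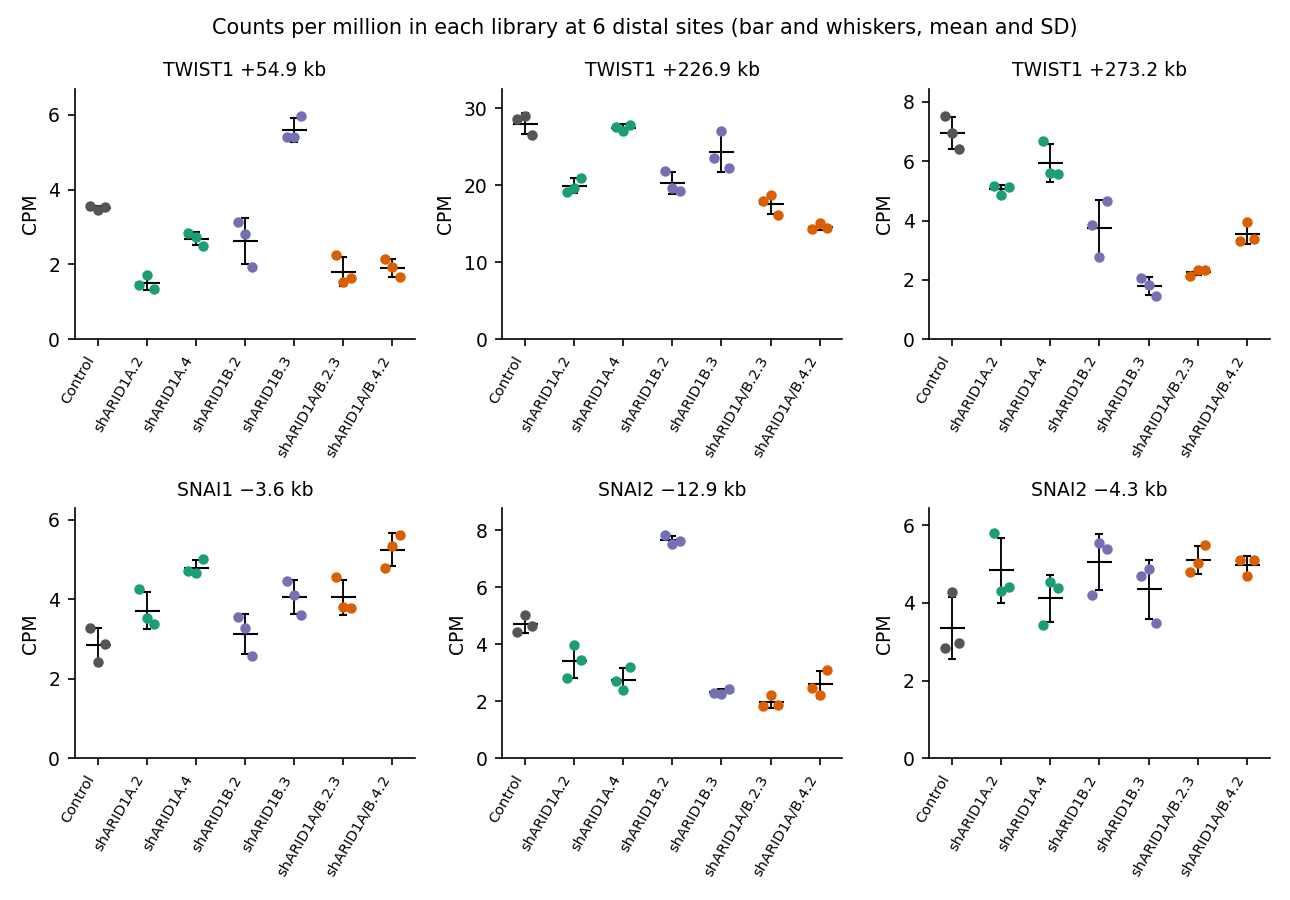
CPM in each library at 3 TWIST1, 1 SNAI1 and 2 SNAI2 distal sites by group, with the mean and SD of 3 libraries. At TWIST1 54.9 kb shARID1B.3 lies above Control, and at SNAI2 -12.9 kb shARID1B.2 does. All combination libraries lie below Control at both, as the naming rule required of the largest falls.

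Single silencing was set against Control to see whether silencing of either gene alone changed these sites. After ARID1A silencing 3 of 81 sites closed (3.70%, against 5.37% of all tested sites) and 2 opened (2.47%, against 1.67%). After ARID1B silencing 2 closed (2.47%, against 3.53%) and none opened (against 1.39%), where 7 were higher at an unadjusted p under 0.05 and DESeq2 opened none. The closed sites were SNAI2 -12.9 kb and TWIST1 37.6 and 54.9 kb for ARID1A, and TWIST1 226.9 and 273.2 kb for ARID1B. SNAI1 -3.6 kb and the ZEB1 promoter opened after ARID1A silencing, the latter at 0.28 (FDR 0.00562). The ZEB1 call was lost with promoter scaling (0.09, FDR 0.359), without Control replicate 1, 2 or 3 (FDR 0.0139, 0.0308 and 0.0235), without shARID1A.2 replicate 1 or 3 (FDR 0.0144 and 0.0108) and without shARID1A.4 replicate 2 (FDR 0.0139). No member site was called in the same direction in all of combined, ARID1A and ARID1B silencing. The share of all tested sites so called was not counted, so this is not a result about the members. ARID1A silencing lay below ARID1B silencing at 4 sites (4.94%, against 3.69%) and above it at 1 (1.23%, against 1.05%), the 5 sites being SNAI2 -12.9 kb and TWIST1 37.6, 54.9, 61.1 and 273.2 kb.

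By shRNA, 5 member sites were called with shARID1A.2 (6.17%, against 5.38% of all sites), 7 with shARID1A.4 (8.64%, against 6.45%), 5 with shARID1B.2 (6.17%, against 3.18%) and 7 with shARID1B.3 (8.64%, against 8.00%). With shARID1A.2 all 5 were TWIST1 sites that fell, and none rose, where 7 were higher at an unadjusted p under 0.05. With shARID1A.4 2 fell and 5 rose. The combinations gave 17 called sites with shARID1A/B.2.3 (21%, against 13.2%) and 19 with shARID1A/B.4.2 (23.5%, against 11.3%), 13 of them lower in each case.

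Groups with the same targets were then compared directly. shARID1A.2 was lower than shARID1A.4 at 7 sites, all at TWIST1 (8.64% of the member sites, against 2.57% of all sites called in either direction), and higher at none. shARID1B.3 differed from shARID1B.2 at 8 sites (9.88%, against 7.21%), with 3 lower and 5 higher. The combinations differed at 5 sites (6.17%, against 5.22%), where shARID1A/B.2.3 was lower at 4 and higher at 1. Among the 4 was TWIST1 251.1 kb, chosen after its values were seen, with 1.81, 1.67 and 1.67 CPM against 3.36, 3.91 and 4.08 and a difference of -1.14 (FDR 7.18e-08). Control measured 2.74, 2.47 and 2.37 CPM there, between the combinations, so that the averaged change was 0.02.

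**Figure D5:**
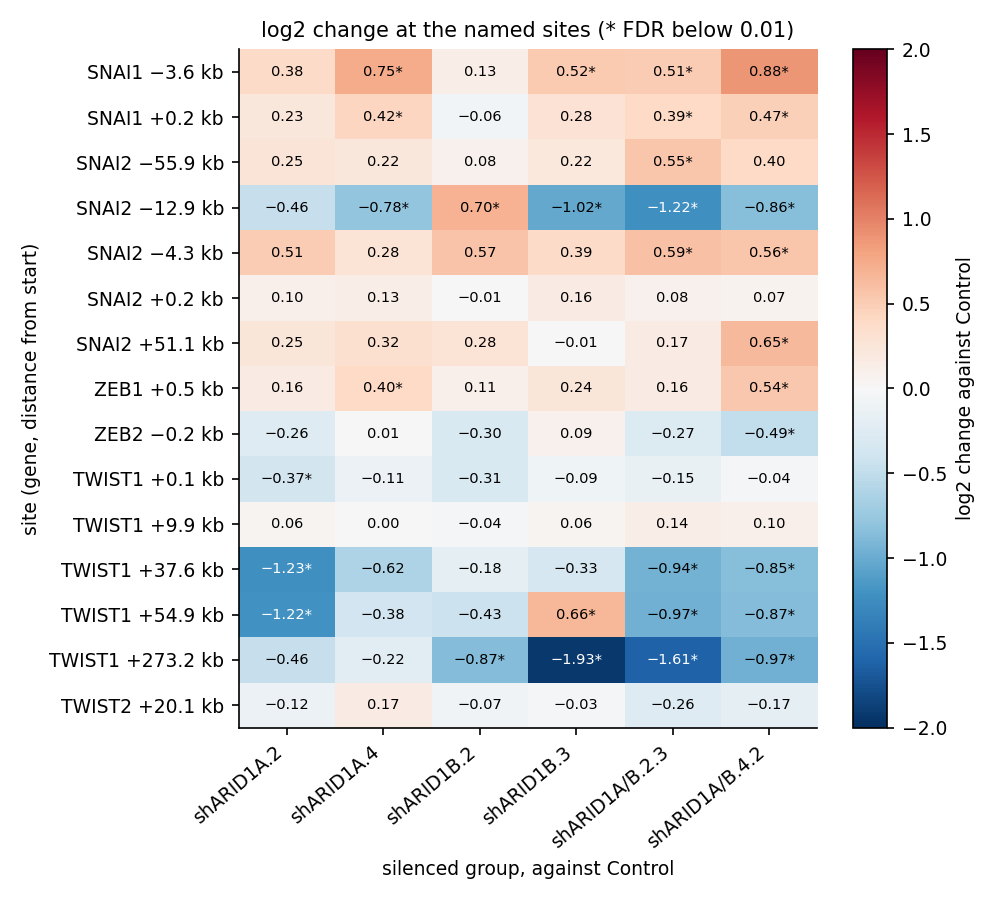
Log2 change against Control at the 15 named sites (rows) in each silenced group (columns), with an asterisk for an FDR below 0.01. SNAI2 -12.9 kb was higher with shARID1B.2 (0.70) and lower with the other groups, and TWIST1 54.9 kb was higher with shARID1B.3 (0.66) and lower with the others.

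Combined silencing was also set against the mean of the 4 single-shRNA groups. It was lower at 9 sites (11.1%, against 6.85% of all tested sites) and higher at 2 (2.47%, against 0.969%). Lower sites included TWIST1 61.1 kb (-0.86, FDR 9.73e-08), SNAI2 -12.9 kb (-0.65, FDR 2.32e-07), TWIST1 54.9 kb (-0.58, FDR 4.64e-05), TWIST2 16.7 kb (-0.43, FDR 7.12e-05) and the ZEB2 promoter (-0.27, FDR 0.00293). The ZEB2 call was lost without shARID1A/B.2.3 replicate 1 or 3 (FDR 0.0212 and 0.0148), shARID1A/B.4.2 replicate 3 (FDR 0.0444) or shARID1B.3 replicate 2 (FDR 0.0115). The higher sites were SNAI2 -55.9 kb (0.28, FDR 0.00372) and SNAI2 -25 kb (0.61, FDR 0.00306). The former was lost with promoter scaling (0.21, FDR 0.0369), without shARID1A.4 replicate 3 (FDR 0.0127) and without shARID1A/B.4.2 replicate 3 (FDR 0.0187), and the latter with DESeq2 (adjusted p 0.0165), with promoter scaling (FDR 0.0161), without shARID1A/B.2.3 replicate 2 (FDR 0.0124), without shARID1A/B.4.2 replicate 1 or 3 (FDR 0.0173 and 0.0407) and without shARID1B.2 replicate 3 (FDR 0.0116). TWIST2 16.7 kb and SNAI2 -25 kb were chosen after their values were seen. The departure of the combined change from the sum of both single changes was called at no member site (against 0.516% of all sites), while 17 had an unadjusted p under 0.05, and the comparison was not run with DESeq2.

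TWIST2, the paralogue of TWIST1 in dermal and mesenchymal cells, had 4 intronic sites, and all 4 had negative values after combined silencing (median log2 change -0.32). The brightest, at 20.1 kb (chr2:238866109-238870080), measured 7.31, 5.63 and 7.06 CPM in Control, 6.11, 4.39 and 6.55 with shARID1A/B.2.3 and 5.51, 5.75 and 6.45 with shARID1A/B.4.2. The groups overlapped, at -0.21 ± 0.12 (FDR 0.218), but it was called at -0.45 (FDR 7.29e-04) with promoter scaling. The site at 16.7 kb, chosen after its values were seen, measured 6.59, 5.18 and 5.93 CPM in Control and 3.44 to 5.22 with the combinations (-0.42 ± 0.12, FDR 0.00523), and this call was lost in 9 of 16 alternative fits, among them without Control replicate 1 (-0.34, FDR 0.0806), without shARID1A/B.2.3 replicate 2 (-0.30, FDR 0.0506), without Control replicate 3, shARID1A/B.2.3 replicate 3 or any library of shARID1A/B.4.2 (FDR 0.0102 to 0.0258) and with DESeq2 (adjusted p 0.0196). Sites inside gene bodies that are named for another gene were also read after combined silencing. None was called among 14 sites in ZEB1 (-0.73 to 0.83) and 6 in TWIST2 (-0.39 to 0.36). Of 31 sites in ZEB2 (-0.64 to 0.47), 2 closed (6.45%, against 10.3% of all tested sites) and none opened.

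Counts were also summed over all sites of a gene and tested across 26743 genes, of which 20.9% were lower and 15.9% higher after combined silencing. Of the 6 members, 3 were lower and 2 higher. The sums of ZEB1 and ZEB2 hold only their 1 site each, already given above. Gene sums were not fitted with promoter scaling. The TWIST1 sum measured 221 ± 15.5 CPM in Control (SD, n = 3), 189 ± 17.2 under shARID1A/B.2.3 and 170 ± 1.85 under shARID1A/B.4.2, a log2 change of -0.30 ± 0.05 (FDR 5.82e-05). It was lower also after ARID1A silencing (-0.22, FDR 0.00245) and ARID1B silencing (-0.19, FDR 0.00868), and with sites within 100 kb only it was not called (-0.14, FDR 0.0197). TWIST2 changed by -0.37 ± 0.08 (FDR 8.91e-04) and ZEB2 by -0.44 ± 0.11 (FDR 0.00176). The former was lost with total counts only (FDR 0.0132), the latter without Control replicate 1 or 2 (FDR 0.0182 each). ZEB1 rose by 0.29 ± 0.04 (FDR 9.25e-06) and SNAI1 by 0.26 ± 0.07 (FDR 0.00217, lost without Control replicate 2 at 0.0152), and SNAI2 measured 0.03 (FDR 0.653).

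Since the members bind E-boxes, the central 300 bases of each site were searched on both strands for CACCTG or CAGGTG, which were found at 20 of 81 member sites (24.7%) and 25% of all tested sites. CATATG was at 4.94% and 6.28%, CAGATG or CATCTG at 18.5% and 23%, and the AP-1 letters TGANTCA at 7.41% and 10.9%. By gene, CACCTG or CAGGTG was at 5 of 6 SNAI1, 8 of 40 SNAI2, 5 of 29 TWIST1 and 2 of 4 TWIST2 sites, and not in the windows of ZEB1 and ZEB2. Closed member sites had a median GC content of 38.7% (all closed sites 43.7%) and opened ones 68.5% (all opened sites 61.7%). The stretch just upstream of the ZEB1 transcript start is shown since the opened promoter site spans it, with its CACCTG, which lies outside the searched window, in capitals (RefSeq, GRCh38.p14, chr10:31318966-31319124, plus strand).
ZEB1 upstream of start: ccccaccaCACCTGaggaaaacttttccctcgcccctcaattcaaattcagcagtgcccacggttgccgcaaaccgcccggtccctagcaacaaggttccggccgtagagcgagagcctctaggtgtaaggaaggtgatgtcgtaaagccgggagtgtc

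The other genes of the EMT pathway were taken from a list of 41 genes, of which 38 had 445 tested sites. After combined silencing 67 of these closed (15.1%) and 21 opened (4.72%), against 10.3% and 3.43% of all tested sites, with a median log2 change of -0.03. The inducing signal (TGF-beta ligands, receptors and SMAD proteins) had 23 closed (18.4%) and 4 opened of 125 sites, and targets and effectors such as the cadherins 18 (15.1%) and 5 of 119. Other EMT factors had 11 closed (13.6%) and 6 opened of 81, partners and corepressors 9 (11.1%) and 4 of 81, and antagonists such as the OVOL factors 6 (15.4%) and 2 of 39. At annotated promoters, those opening most were SMAD2, a transducer of TGF-beta signals whose promoter site was listed at -10.7 kb from its start (0.64 ± 0.09, FDR 1.78e-09), TCF3, which encodes E proteins that dimerise with TWIST (0.49 ± 0.10, FDR 2.88e-05), and TGFBR1, a TGF-beta receptor (0.46 ± 0.08, FDR 8.73e-07). Among all promoter sites 33.4% opened and 4.24% closed, with a median log2 change of 0.23. The promoter sites named for FN1, CLDN1, DSP, ESRP1, TCF4, TCF12, HAND2, LATS2, CTBP2 and HDAC2 were not called. Of these, the sites of DSP, TCF12 and HAND2 are annotated to promoters of other genes, and that of TCF4 was listed at 79.1 kb. Promoter scaling was not examined at the genes of this list. Among targets, CDH2, which encodes N-cadherin, had 18 closed and 3 opened of 45 sites, and CDH1, which encodes E-cadherin, had 1 opened of 5. The last 2 genes were chosen after their values were seen.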

How the data were processed

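The authors aligned reads to GRCh38, per the labels, and deposited raw read counts of each library over a consensus set of sites. Which aligner and peak caller were run was not given in the sources read. A deposited annotation gave each site's class, nearest gene and distance to its start. The deposited log2 ratios, p-values and normalised counts of the authors' own DESeq2 comparisons were not used.

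Counts of all 21 libraries were fitted in 1 model of 7 groups with the edgeR 4.0.16 quasi-likelihood test (R 4.3.3), after filterByExpr with a minimum count of 10 and TMM normalisation, and p-values were adjusted by Benjamini-Hochberg over 357029 sites and called at an FDR below 0.01. The common biological coefficient of variation was 0.0817. SE was the log2 change divided by the root of F. DESeq2 1.42.0, other scalings and filters, a replicate block and leaving out each library were alternatives.

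Sites were named by a rule: start sites, the brightest site of each gene, up to 3 closed and 3 opened sites of at least 1 CPM without overlap between combinations and Control, and the largest difference of ARID1A from ARID1B silencing. The members, the gene lists and this rule were chosen with earlier results of these data known. E-boxes were searched in 357028 windows of 300 bases. The sequence of 1 site is not reported here. Replicates of every group differed by more than counting noise (chi-square per degree of freedom at least 1.08), so all libraries were counted.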

Additional observations from a re-analysis of the deposited data

Results flagged for a closer look

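All 81 sites were examined, and those are given where 2 groups compared with each other differed at an FDR below 0.01 (edgeR quasi-likelihood), each value being a log2 difference with its standard error. ARID1A minus ARID1B silencing was -0.46 ± 0.11 (FDR 0.00173) at SNAI2 -12.9 kb, -0.67 ± 0.18 (FDR 0.00726) at TWIST1 37.6 kb, -0.92 ± 0.12 (FDR 1.41e-08) at TWIST1 54.9 kb, -0.96 ± 0.14 (FDR 6.42e-08) at TWIST1 61.1 kb and 1.06 ± 0.11 (FDR 2.33e-13) at TWIST1 273.2 kb.

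The shRNAs against ARID1B (shARID1B.3 minus shARID1B.2) differed by 1.14 ± 0.31 (FDR 0.00598) at SNAI1 -17.8 kb, -1.72 ± 0.14 (FDR 9.29e-18) and -0.81 ± 0.17 (FDR 1.76e-04) at SNAI2 -12.9 and 30.3 kb, 0.39 ± 0.11 (FDR 0.00730) at the ZEB2 promoter, and 1.09 ± 0.15 (FDR 2.40e-08), 1.67 ± 0.16 (FDR 6.12e-14), 0.65 ± 0.15 (FDR 8.26e-04) and -1.06 ± 0.16 (FDR 4.06e-07) at TWIST1 54.9, 61.1, 116.8 and 273.2 kb. At SNAI2 -12.9 kb shARID1B.2 was called above Control and shARID1B.3 below it, while at TWIST1 54.9 and 61.1 kb shARID1B.3 was called above Control and shARID1B.2 measured -0.43 (FDR 0.136) and -0.35 (FDR 0.356).

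The shRNAs against ARID1A (shARID1A.2 minus shARID1A.4) differed by -0.53 ± 0.13 (FDR 0.00546), -0.84 ± 0.20 (FDR 0.00254), -0.95 ± 0.21 (FDR 0.00144), -0.68 ± 0.16 (FDR 0.00351), -0.46 ± 0.09 (FDR 2.81e-04), -0.68 ± 0.17 (FDR 0.00612) and -0.37 ± 0.09 (FDR 0.00861) at TWIST1 19.2, 54.9, 61.1, 116.8, 226.9, 251.1 and 270.9 kb. The combinations (shARID1A/B.2.3 minus shARID1A/B.4.2) differed by -0.48 ± 0.10 (FDR 4.05e-04) at SNAI2 51.1 kb, -0.39 ± 0.08 (FDR 5.27e-04) at the ZEB1 promoter, 0.70 ± 0.17 (FDR 0.00217) at TWIST1 116.8 kb, -1.14 ± 0.16 (FDR 7.18e-08) at TWIST1 251.1 kb and -0.65 ± 0.16 (FDR 0.00287) at TWIST1 273.2 kb. How strongly each shRNA lowered its target was not analysed here, and the cause of these differences was not tested.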

How the results depend on the processing

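Of the 24 member sites called after combined silencing, 9 kept their call in every alternative fit that gave an adjusted p (15 for SNAI1 11.2 kb, 16 for the others), namely SNAI1 -3.6 kb, SNAI2 -12.9 and 34.7 kb, and TWIST1 37.6, 54.9, 61.1, 155.3, 226.9 and 273.2 kb. Over all alternatives, 1134 single values kept direction and side of the threshold, 79 were no longer called, 20 became called and 4 reversed, and 103 counts stayed within 1.5 times while 19 did not. The 4 reversals came with scaling on promoter sites, at -0.018 for SNAI1 0.2 kb and -0.013 for TWIST1 54.9 kb after ARID1B silencing, and at -0.16 for SNAI2 0.2 kb and -0.12 for TWIST1 9.9 kb after combined silencing. The cause was not tested.

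With a log2 change of at least 1, 5 sites were called after combined silencing, 0 after ARID1A, 1 after ARID1B silencing, 0 for combined against single and 1 for ARID1A against ARID1B silencing. At FDR below 0.05 the counts were 14 for ARID1A, 8 for ARID1B and 21 for combined against single silencing. With sites within 100 kb only, 0 remained for ARID1B and 7 for combined against single silencing. With promoter scaling ARID1A had 13 and ARID1B 7 called sites, and with total counts only ARID1A had 8. Leaving out 1 library at a time gave 16 to 23 called sites after combined silencing, 3 to 6 for ARID1A, 1 to 4 for ARID1B, 8 to 13 for combined against single, 3 to 5 for ARID1A against ARID1B silencing and 3 to 5 of the 6 gene sums. The lowest number of closed sites after combined silencing, 11, came without Control replicate 1. Shares over all tested sites were not counted under the alternatives, so these counts are not results about the members.

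Libraries share replicate numbers across groups. Deviations of same-numbered libraries correlated at -0.566 to 0.722 (median 0.076), with 28 of 63 pairs over 0.1. Libraries of different numbers gave -0.621 to 0.542 (median -0.037), with 39 of 126 pairs over 0.1. By number, Control and shARID1A/B.2.3 correlated at 0.36, 0.722 and 0.452, whereas Control and shARID1B.2 gave -0.301, -0.566 and -0.07. Pairing by number was thus not uniform across groups, and the main fit did not use it. With the replicate block 25 sites were called after combined silencing, 8 for ARID1A, 3 for ARID1B, 12 for combined against single and 5 for ARID1A against ARID1B silencing, and 5 gene sums. With a median of 34 reads per site and library, small changes at dim sites were not detectable.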
